A study of Homo sapiens with 8 samples.

Results

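Tight junctions seal the space between neighbouring epithelial cells and set which ions and solutes pass between them. Claudins are the membrane proteins that form the strands of the junction: some, such as claudin-2, act as pores for small cations and water, while others, such as claudin-1, mainly tighten the seal. Occludin and the junctional adhesion molecules share the same membrane domain, and the zonula occludens scaffolds tie all of them to actin filaments. The genes described here are 10 of the 19158 genes in the table: CLDN1, CLDN2, CLDN3, CLDN4, CLDN7, CLDN12, CLDN15, OCLN (occludin), TJP1 (zonula occludens protein ZO-1) and F11R (junctional adhesion molecule A). They were picked by gene name, with the values of these libraries and the differences between the groups already known. Their levels and differences are therefore given as a description, with no test.

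The cells were A549, an established epithelial line from a human lung adenocarcinoma, with genotype labelled WT. The control group was 4 wells labelled NT with treatment none, and the other group was 4 wells given 1 µM dexamethasone, a synthetic glucocorticoid, for 48 h. Each well gave 1 library, the replicate numbers were 1, 3, 4 and 5 in both groups, and all 8 libraries carried batch label 1. The study measured RNA from 1 cell line in plain culture; whether the wells had formed a sealed layer is not given in the sources used here, and junction proteins were not analysed here.

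Total RNA depleted of ribosomal RNA was sequenced in read pairs. Levels are FPKM (fragments per kilobase of transcript, scaled to the mapped fragments of the library) as deposited, and a mean is followed by its SD over 4 libraries. A log2 fold change is dexamethasone minus untreated on the log2(FPKM + 1) scale after scaling between libraries, with its SE from limma, and it understates the change of low genes. The scaling factors lay between 0.828 and 1.07. Depth, estimated from steps between low values, was 25200000 to 28510000 fragments per library. The labels state 40000000 to 50000000 sequenced read pairs. The search covered only depths below that range, so the estimate is no check of the labels. The treatment labels were checked on FKBP5, a standard glucocorticoid-induced gene, which was at 3.28 to 7.30 FPKM in untreated and 87.3 to 166 FPKM in dexamethasone libraries (log2 fold change 4.31, SE 0.21, limma adjusted p = 1.4e-06). TSC22D3 also rose, by 3.85 on the log2 scale (SE 0.16, limma adjusted p = 4.39e-07), as did PER1, by 1.92 (SE 0.17, limma adjusted p = 3.73e-05).

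The libraries numbered 5 stood apart from the rest of their groups. On the second principal component of all tested genes (21.6% of the variance) untreated replicate 5 lay at 31.8 and dexamethasone replicate 5 at 30.5, while the other 6 libraries lay between -24.9 and 7.07. Across 12130 genes, the departure of untreated replicate 5 from the mean of the other untreated libraries rose with the GC content of the transcript (Spearman correlation 0.758, a description across genes, which are not independent), and the correlation was 0.708 for dexamethasone replicate 5. It was -0.662 to -0.0307 in the other libraries. Departures within a group offset each other, so these negative values are no separate evidence. The part of GC content in any result was tested only by removing its trend from each library, and values with the trend removed are given with the members. The labels do not say that the wells were separate cultures beyond being separate wells, so the SD and SE cover the spread between these wells.

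Epithelial keratins were abundant in every library: KRT8 was at 957 to 2195 FPKM and KRT18 at 805 to 1270 FPKM. CDH1 (E-cadherin, the main adhesion molecule of the neighbouring adherens junction) rose from 6.80 ± 1.51 to 18.2 ± 1.45 FPKM (log2 fold change 1.30, SE 0.13, limma adjusted p = 8.69e-05). KRT19, another epithelial keratin, fell from 156 ± 30.6 to 54.7 ± 8.28 FPKM (-1.51, SE 0.23, limma adjusted p = 0.00111). ELF3, an epithelial transcription factor, was at 67.6 to 90.9 FPKM untreated and 49.3 to 63.95 FPKM treated, and was not called (-0.39, SE 0.20, limma adjusted p = 0.169). EPCAM, an epithelial membrane protein that binds claudin-7, was at 0.140 to 0.765 FPKM and too low to be tested. The epithelial splicing regulator ESRP1 was at 0 to 0.0819 FPKM, so not every epithelial marker was present. Markers of other cell types were low: the 4 endothelial markers (PECAM1, CDH5, VWF and KDR) summed to at most 0.182 FPKM, COL1A2 was at 0 in every library, and so were the leukocyte genes PTPRC and CD3E. The fibroblast list of 4 markers summed to 1.81 to 2.29 FPKM in untreated and 0.598 to 0.741 FPKM in dexamethasone libraries. COL1A1 made up most of it in untreated libraries, while DCN was at 0 in all 4 of them and at 0.178 to 0.355 FPKM in treated ones. The leukocyte list of 3 summed to 3.65 to 4.88 and 1.81 to 2.24 FPKM, all of it CD68, a lysosomal protein gene. The part of these genes in the results below was not tested.

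CLDN2 had the largest log2 fold change of the 10 genes with a pseudocount of 1, while CLDN7 had the largest with 0.1 (3.87 against -3.27 for CLDN2). CLDN2 encodes the cation- and water-permeable claudin-2 and lies on chromosome X (ENSG00000165376, GRCh38 106900164 to 106930861, plus strand). Its level in untreated cells was 23.3, 24.8, 23.6 and 28.2 FPKM, taking replicates in the order 1, 3, 4 and 5, the order used throughout. After dexamethasone it was 1.77, 2.34, 3.19 and 3.05 FPKM. Every treated library was far below every untreated one, and the untreated values were close to each other. The mean went from 24.97 ± 2.24 to 2.59 ± 0.661 FPKM, 9.65-fold lower, with a log2 fold change of -2.89 (SE 0.19). In bulk RNA, fewer cells with a transcript and less of it per cell cannot be told apart. MORC4 and RIPPLY1 overlap CLDN2 on the opposite strand, and whether the counting used strand is not given in the sources used here.

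CLDN3 and CLDN4 were lower too. Both encode claudins of tight epithelia and are receptors for an enterotoxin of Clostridium perfringens; their genes are neighbours on chromosome 7, 29272 bases apart, with no other gene of the table between them. CLDN3 (ENSG00000165215, 73768997 to 73770270, minus strand) had 4.26, 3.44, 4.41 and 5.91 FPKM untreated, against 1.4995, 1.19, 1.5008 and 2.56 FPKM treated. Replicate 5 was the highest of its group on both sides, and the groups did not overlap. The mean was 4.50 ± 1.03 against 1.69 ± 0.599 FPKM, 2.67-fold lower (log2 fold change -1.06, SE 0.23). CLDN4 (ENSG00000189143, 73799542 to 73832693, plus strand) was at 2.45, 2.40, 1.52 and 2.17 FPKM untreated and at 0.567, 1.10, 0.788 and 0.856 FPKM treated. These groups did not overlap either, and replicate 5 lay within the range of the others in each group. The mean of CLDN4 was 2.58-fold lower, 2.13 ± 0.427 against 0.827 ± 0.218 FPKM (log2 fold change -0.79, SE 0.15).

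CLDN7 went the other way. Claudin-7 is found along the whole lateral membrane in many epithelia, and its gene is on chromosome 17 (ENSG00000181885, 7259903 to 7263983, minus strand). It was nearly absent from untreated cells, with 0.0411, 0.145, 0 and 0.292 FPKM. After dexamethasone it was at 3.13, 2.93, 2.06 and 3.19 FPKM, above every untreated library. At the length of its longest transcript this corresponds to an estimated 0 to 14.2 fragments in an untreated library and 104 to 175 in a treated one. The log2 fold change was 1.75 (SE 0.14), and 3.87 (SE 0.43) with a pseudocount of 0.1 in place of 1, so its size depends on the pseudocount. The fragment numbers rest on the approximate depth and would be larger if 1 fragment is worth a smaller step. ELP5 overlaps CLDN7 on the opposite strand and ENSG00000262302 on its own strand, so its value as a single gene is uncertain too.

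For the other claudins of the list, CLDN1, CLDN15 and CLDN12, the deposited values of the groups overlapped. CLDN1, the seal-forming claudin whose loss opens the skin barrier (ENSG00000163347, chromosome 3, 190305701 to 190322475), was at 19.4, 21.8, 21.0 and 10.05 FPKM untreated and 18.0, 17.0, 15.8 and 12.6 FPKM treated. The library numbered 5 was lowest in each group and the groups overlapped through it. The log2 fold change of CLDN1 was -0.15, with 2 SE on each side reaching from -0.50 to 0.19. It was -0.37 (SE 0.08) with the GC trend removed and -0.24 (SE 0.08) without both libraries numbered 5.

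CLDN15, a cation-permeable claudin best known in the small intestine (ENSG00000106404, chromosome 7, 101232092 to 101238820), was little different between the groups. It was at 4.49, 4.49, 4.55 and 3.73 FPKM untreated and 3.90, 4.23, 4.19 and 3.70 FPKM treated. Its log2 fold change was -0.10, with 2 SE on each side reaching from -0.31 to 0.11, and 0.14 with the GC trend removed, so its sign was not settled. CLDN12 (ENSG00000157224, chromosome 7, 90383721 to 90513402) varied most among the members above 1 FPKM, at 4.33, 6.31, 2.73 and 1.88 FPKM untreated and 7.88, 3.09, 8.49 and 2.93 FPKM treated. The treated libraries fell into 2 high and 2 low ones, and the log2 fold change of 0.41 had an SE of 0.34. With the GC trend removed it was 0.10 (SE 0.27). CLDN12 overlaps 4 annotated genes on its own strand, among them GTPBP10 and CDK14, so its value as a single gene is uncertain.

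**Figure D1:**
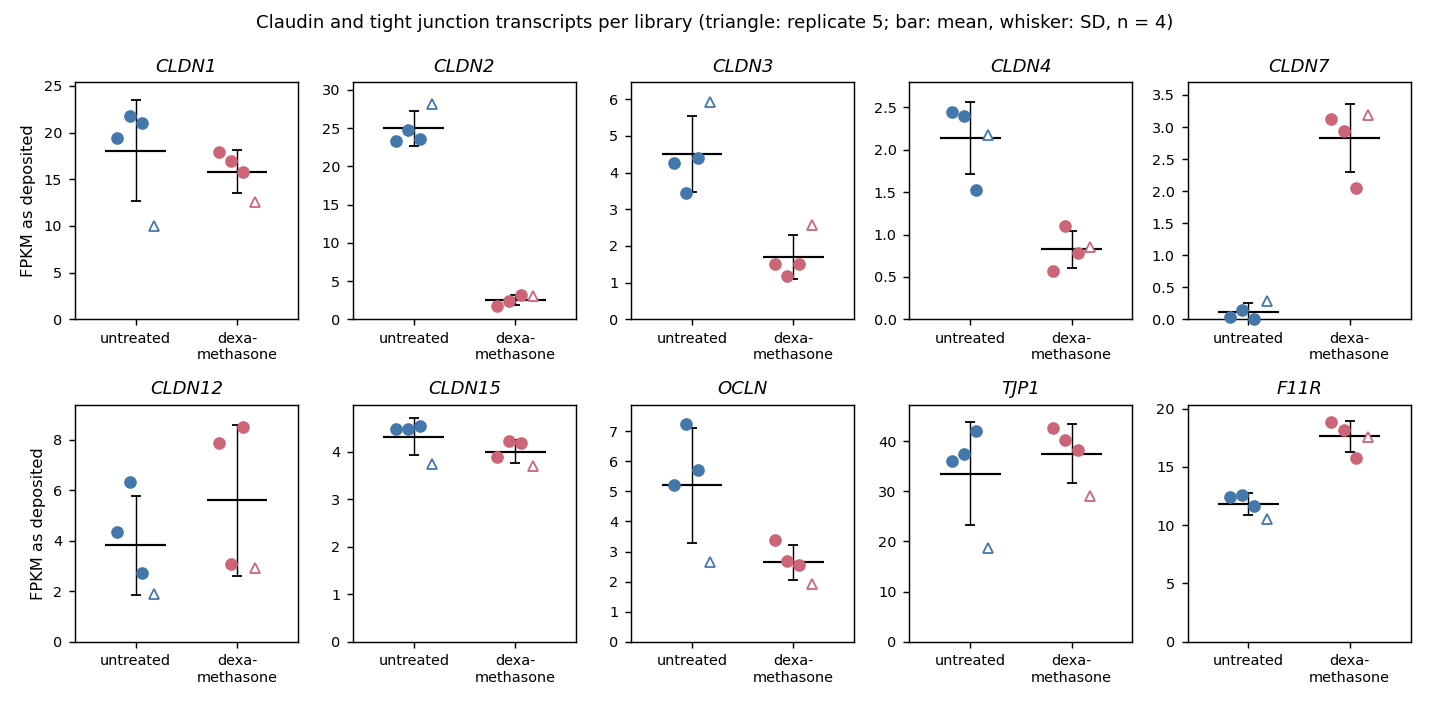
Deposited FPKM of the 10 genes in each library (y axes start at 0 and differ between genes), with points for libraries, triangles for replicate 5, a bar for the mean and a whisker for the SD of 4 libraries. CLDN2 is at 23.3 to 28.2 FPKM untreated and 1.77 to 3.19 FPKM treated, CLDN7 is near 0 untreated, and the triangles of CLDN1, TJP1 and OCLN lie lowest in both groups.

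The 3 members that are not claudins differed among themselves. F11R encodes junctional adhesion molecule A, an immunoglobulin-like adhesion protein that recruits polarity proteins to new contacts (ENSG00000158769, chromosome 1, 160995211 to 161021348). It was at 12.4, 12.6, 11.7 and 10.6 FPKM untreated and 18.9, 18.2, 15.8 and 17.6 FPKM treated. The groups did not overlap and both were narrow, and the mean was 1.49-fold higher, 11.8 ± 0.928 against 17.6 ± 1.34 FPKM (log2 fold change 0.52, SE 0.11). ENSG00000270149 overlaps F11R on the same strand, so the value of F11R as a single gene is uncertain too.

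OCLN encodes occludin, the first membrane protein described in tight junctions (ENSG00000197822, chromosome 5, 69492292 to 69558104). It was at 5.23, 7.24, 5.73 and 2.64 FPKM untreated and 3.38, 2.68, 2.57 and 1.93 FPKM treated. Untreated replicate 5 lay inside the treated range, and without it the groups were apart. The mean was 1.97-fold lower, 5.21 ± 1.91 against 2.64 ± 0.591 FPKM (log2 fold change -0.74, SE 0.20). With the GC trend removed the log2 fold change was -0.998 (SE 0.09). Without scaling between libraries it was -0.72 (SE 0.25). Part of OCLN is duplicated nearby on the same chromosome, so reads could be shared with the copy.

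TJP1 is the ZO-1 scaffold that anchors claudins and occludin to actin (ENSG00000104067, chromosome 15, 29699367 to 29968865). It had the highest mean FPKM of the members in both groups, but lay below CLDN2 (28.2 FPKM) in untreated replicate 5. TJP1 was at 36.0, 37.4, 42.1 and 18.7 FPKM untreated and 42.6, 40.3, 38.2 and 29.0 FPKM treated. The libraries numbered 5 were lowest on both sides, and the groups overlapped. The log2 fold change was 0.18, with 2 SE on each side reaching from -0.18 to 0.55, and it was 0.09 (SE 0.12) with the GC trend removed and 0.11 (SE 0.08) without both libraries numbered 5. ENSG00000259644 overlaps TJP1 on the same strand, so the same limit applies.

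Counted together, 6 of the 10 genes had a limma adjusted p under 0.05 in the fit over all genes, 2 of them higher (CLDN7 and F11R) and 4 lower (CLDN2, CLDN3, CLDN4 and OCLN). Over all 12161 genes tested, those with at least 0.5 FPKM in at least 4 libraries, the share was 27.2%, with 11.9% higher and 15.3% lower. Deposited values did not overlap between the groups for 5 members, against 31.5% of all tested genes. Because the members were picked with these differences known, nothing is read from these counts. All 10 members reached that minimum, CLDN7 through the treated libraries alone. The median log2 fold change of the 10 was -0.13, and that of all tested genes was -0.0039.

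**Figure D2:**
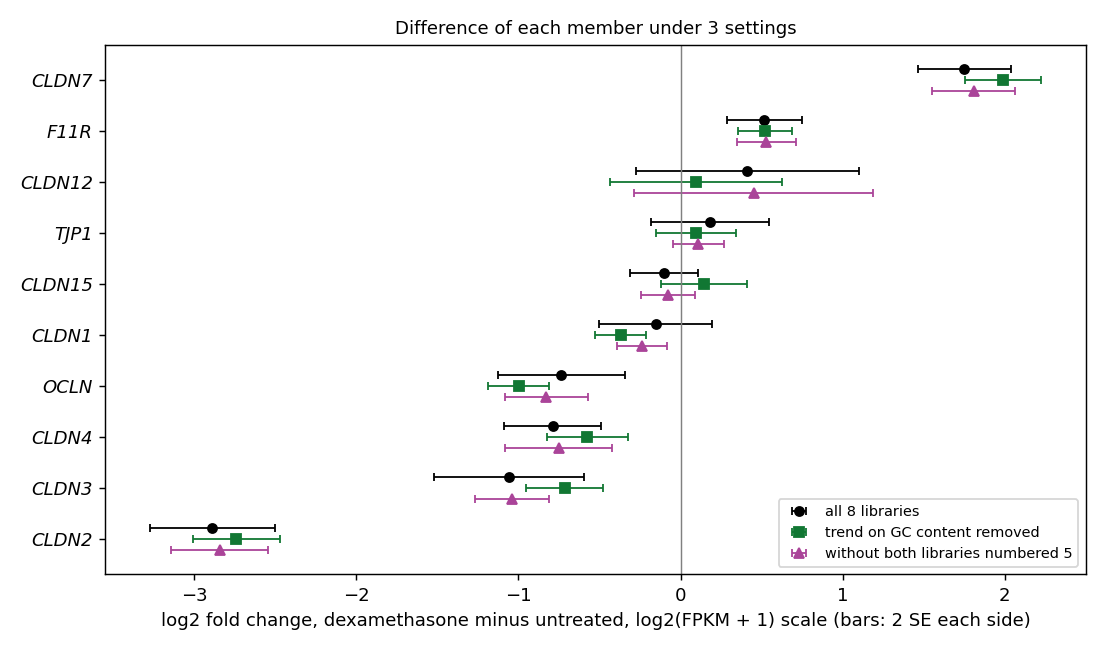
Log2 fold change of each member on the log2(FPKM + 1) scale, dexamethasone minus untreated, with bars of 2 SE on each side, for all 8 libraries, with the trend on GC content removed, and without both libraries numbered 5. CLDN2 stays between -2.89 and -2.74, CLDN7 between 1.75 and 1.99, and CLDN15 changes sign between the first 2 settings.

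The make-up of the claudin transcripts was compared within each library, where a scaling factor cancels. The table holds 24 claudin genes, whose FPKM summed to 63.3 ± 4.76 in untreated and 38.5 ± 3.23 in treated libraries. Without CLDN2 the sums were 38.4 ± 6.40 and 35.9 ± 3.59 FPKM, ranges that overlapped. CLDN2 made up 36.6%, 35.8%, 37.5% and 49.0% of the claudin FPKM in untreated replicates 1, 3, 4 and 5, and 4.21%, 6.35%, 7.91% and 8.74% in the treated ones. It was thus the leading claudin transcript in all 4 untreated libraries and at most 8.74% of the pool in a treated one. CLDN1 led after dexamethasone, with 41.0% ± 4.35 against 28.2% ± 7.26 in untreated libraries. CLDN7 went from 0.196% ± 0.226 to 7.42% ± 1.70 of the pool, and CLDN15 from 6.82% ± 0.380 to 10.4% ± 0.901. CLDN12 went from 5.88% ± 2.62 to 14.2% ± 6.71, CLDN23 from 7.86% ± 0.54 to 11.8% ± 2.74 and CLDN3 from 7.24% ± 2.21 to 4.46% ± 1.93. Because the sum was lower after dexamethasone, a share can rise without more transcript. The mean FPKM of CLDN1 (18.1 and 15.8), CLDN15 (4.32 and 4.01) and CLDN23 (4.96 and 4.50) was not higher in treated libraries. CLDN4 was a small part on both sides, 3.38% ± 0.660 and 2.18% ± 0.694.

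**Figure D3:**
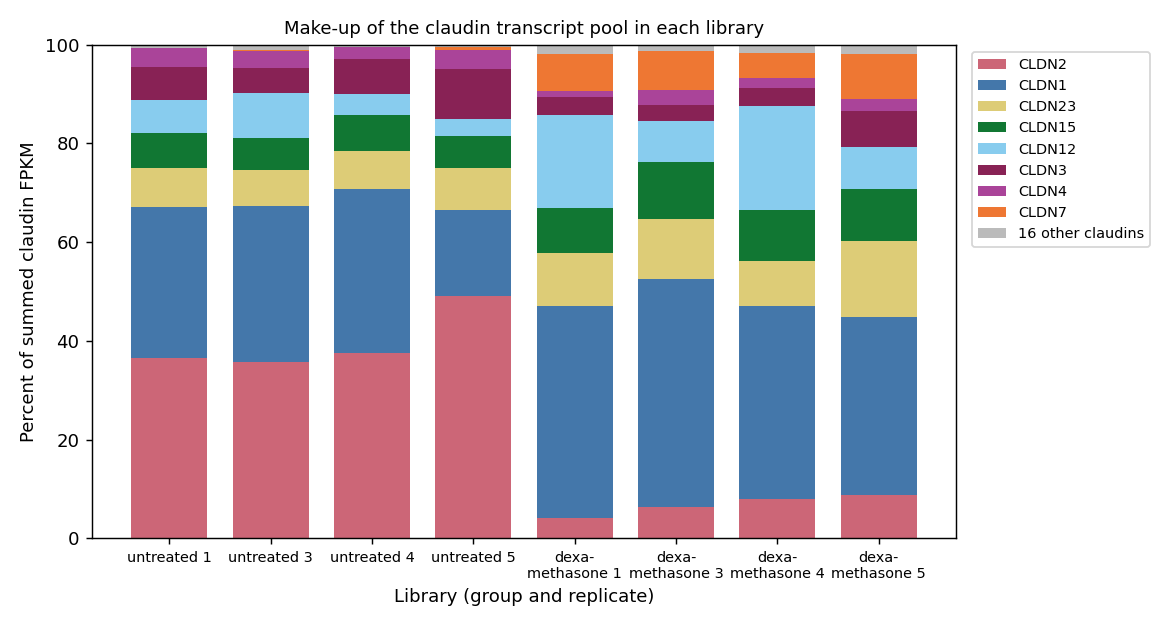
Percent of the summed claudin FPKM held by each claudin gene in each library (bars are libraries, colours are genes, and 16 claudins with little signal are pooled). CLDN2 takes 35.8% to 49.0% of each untreated bar and 4.21% to 8.74% of each treated bar, and CLDN7 is visible in every treated bar.

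Ordered by mean FPKM, which is per transcript length, untreated cells had TJP1, CLDN2, CLDN1, F11R, OCLN, CLDN3, CLDN15, CLDN12, CLDN4 and CLDN7. Neighbours in this order overlapped in range except CLDN2 above CLDN1, F11R above OCLN and CLDN4 above CLDN7. In treated cells the order was TJP1, F11R, CLDN1, CLDN12, CLDN15, CLDN7, OCLN, CLDN2, CLDN3 and CLDN4, so CLDN2 moved from rank 2 to rank 8. There TJP1 lay above F11R, CLDN1 above CLDN12, CLDN15 above CLDN7 and CLDN3 above CLDN4 with no overlap, and the other neighbours overlapped.

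The spread within a group followed the libraries numbered 5 for some members. In untreated replicate 5, TJP1 was at 0.487, CLDN1 at 0.484, OCLN at 0.435 and CLDN12 at 0.422 of the mean of the other 3 libraries, and their longest transcripts hold 44.8%, 41.3%, 39.9% and 38.1% GC. CLDN3, at 69.2% GC, was at 1.46 of that mean, CLDN2 (52.4% GC) at 1.18 and CLDN4 (57.5% GC) at 1.02. The members did not all line up with GC content: CLDN15, at 60.2% GC, was at 0.828 of that mean, below F11R (47.7% GC) at 0.863. In dexamethasone replicate 5 the same ratio was 0.719 for TJP1, 0.743 for CLDN1, 0.673 for OCLN, 0.451 for CLDN12 and 1.83 for CLDN3. The low value of CLDN12 was not particular to that library: it was at 2.93 FPKM there and 3.09 FPKM in dexamethasone replicate 3. With the GC trend removed the log2 fold change of CLDN3 was -0.72 (SE 0.12) and that of CLDN4 was -0.57 (SE 0.13), both smaller than with the trend kept, and that of CLDN7 was 1.99 (SE 0.12).

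Start regions of the members were read from RefSeq (GRCh38.p14), where 9 of the 10 genes matched, with 15 start sites in all. They are shown for genes that were lower, higher or little different, to let their base composition be compared, and only where the 250 bases before the start hold no annotated exon. Capitals mark each CG dinucleotide, the site of DNA methylation.
CLDN2, second start, chrX:106918110-106918359, plus strand: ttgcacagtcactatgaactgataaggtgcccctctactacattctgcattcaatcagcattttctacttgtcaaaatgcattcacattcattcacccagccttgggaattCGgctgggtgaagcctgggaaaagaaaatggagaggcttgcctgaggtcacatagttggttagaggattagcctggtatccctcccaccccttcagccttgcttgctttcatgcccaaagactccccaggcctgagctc
CLDN3, chr7:73770271-73770520, minus strand: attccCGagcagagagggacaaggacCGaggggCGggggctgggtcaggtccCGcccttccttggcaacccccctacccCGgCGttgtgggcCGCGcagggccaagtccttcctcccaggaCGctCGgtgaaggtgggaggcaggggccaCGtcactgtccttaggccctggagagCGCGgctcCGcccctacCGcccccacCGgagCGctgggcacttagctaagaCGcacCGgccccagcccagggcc
CLDN7, first start, chr17:7263214-7263463, minus strand: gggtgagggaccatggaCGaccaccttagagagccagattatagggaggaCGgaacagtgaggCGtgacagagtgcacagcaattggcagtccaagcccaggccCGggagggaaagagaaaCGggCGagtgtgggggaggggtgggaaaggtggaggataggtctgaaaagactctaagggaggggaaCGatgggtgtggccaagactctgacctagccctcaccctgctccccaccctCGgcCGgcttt
TJP1, first start, chr15:29969050-29969299, minus strand: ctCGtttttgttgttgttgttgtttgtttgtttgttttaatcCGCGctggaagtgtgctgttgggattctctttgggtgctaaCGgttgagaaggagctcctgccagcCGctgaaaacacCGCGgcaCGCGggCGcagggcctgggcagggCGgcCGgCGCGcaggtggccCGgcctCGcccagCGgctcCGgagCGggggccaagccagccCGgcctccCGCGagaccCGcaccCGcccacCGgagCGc

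The CLDN2 window holds 1 CG, the CLDN7 window 9, the CLDN3 window 19 and the TJP1 window 26, where the median of all 35116 promoters of the table is 11. The other CLDN2 start has 0 CG in its 250 bases, and 6.06% of all promoters hold none. CLDN4 has 4. CLDN2 and CLDN4 thus lay below the median, while CLDN3, which was also lower after dexamethasone, lay above it. OCLN, lower as well, had 24 and 20 at its 2 starts, and the second start of CLDN7 had 25, so CG counts on either side of the median occurred among both lower and higher genes. The glucocorticoid response element was searched on both strands in the 300 bases from 250 before to 50 after each start. The full element, spelled GNACA, then 3 bases of any kind, then TGTNC, was in 0 of the 15 member windows and in 0.390% of all promoters. The short core AGAACA was in 1 member window, the fourth start of TJP1, and in 14.8% of all promoters. The core can overlap the full element, which can also occur without it. A window of this size says nothing about the receptor elsewhere at these genes.

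Other genes of the junction were taken from 6 lists drawn up by role, with earlier results of these data known. Their counts are therefore a description. Of 75 genes listed 74 were found, 44 passed the filter, and 10 of these passed the limma test, 2 higher and 8 lower. That is 22.7% of those tested, beside 27.2% of all tested genes. Its median log2 fold change was 0.01. The balance of directions depended on the setting: 7 were higher and 7 lower with the GC trend removed, 7 and 8 without both libraries numbered 5, and 11 and 10 with the replicate number as a block. The count was 6 without dexamethasone replicate 3 and 5 without dexamethasone replicate 4.

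Of 17 other claudins, 16 were below the filter and 4 of them were at 0 in every library. CLDN23 was the exception, at 4.96 ± 0.103 FPKM untreated and 4.50 ± 0.717 FPKM treated (log2 fold change -0.14, SE 0.15, limma adjusted p = 0.504). Its sign turned with the GC trend removed, at 0.11. CLDN5, the endothelial claudin, and CLDN18, whose lung form marks alveolar epithelium, were below the filter. Of 5 genes for tricellular contacts and MARVEL-domain proteins, 2 were tested and neither was called.

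Among 7 tested immunoglobulin-like adhesion genes, 2 were called lower and none was called higher. Genes not called, here and in the lists below, are not shown to be unchanged. ESAM, an adhesion molecule best known from endothelium and platelets, fell from 3.47 ± 0.733 to 0.812 ± 0.201 FPKM (log2 fold change -1.31, SE 0.16, limma adjusted p = 0.000306). Of the endothelial markers, CDH5 was at 0.0637 to 0.146 FPKM untreated and at most 0.00964 FPKM treated, while KDR was at most 0.00653 FPKM untreated and 0.0197 to 0.0930 FPKM treated. Their part in the ESAM result was not tested. NECTIN1, a nectin that starts cell-cell contacts, fell from 6.17 ± 0.344 to 3.24 ± 0.235 FPKM (-0.78, SE 0.13, limma adjusted p = 0.00231). The F11R relative JAM3 was tested and not called.

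Of 10 tested scaffold genes, 2 were called lower and 1 higher. CGNL1 (paracingulin, which links junctions to small GTPases) fell from 1.27 ± 0.165 to 0.428 ± 0.0921 FPKM (log2 fold change -0.67, SE 0.09, limma adjusted p = 0.000409). CGN (cingulin) fell by 0.30 on the log2 scale (SE 0.10, limma adjusted p = 0.0428). It lost its call in 13 of 16 alternatives, over which the adjusted p ran from 0.0243 to 0.618. Leaving out any single library other than dexamethasone replicate 1 was enough to lose it, with values of -0.27, -0.32, -0.32 and -0.30 without untreated replicates 1, 3, 4 and 5 and -0.29, -0.29 and -0.26 without dexamethasone replicates 3, 4 and 5. TJP3 (ZO-3, a relative of the ZO-1 scaffold) rose from 1.45 ± 0.268 to 2.53 ± 0.271 FPKM (0.51, SE 0.15, limma adjusted p = 0.0314). That call was lost without untreated replicate 1 (0.50), 3 (0.46) or 4 (0.43) or dexamethasone replicate 3 (0.49), 4 (0.50) or 5 (0.47).

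All 11 polarity genes were tested, and 2 were called lower and 1 higher. PARD3, the scaffold of the PAR complex that junctional adhesion molecule A recruits, fell from 33.5 ± 4.51 to 23.1 ± 1.599 FPKM (log2 fold change -0.53, SE 0.11, limma adjusted p = 0.00582). Its relative PARD3B rose from 1.35 ± 0.483 to 3.31 ± 1.10 FPKM (0.86, SE 0.19, limma adjusted p = 0.00825). PARD6A, a partner of atypical protein kinase C, fell from 4.76 ± 2.15 to 1.63 ± 0.482 FPKM (-1.10, SE 0.29, limma adjusted p = 0.0209). The PARD6A call was lost without dexamethasone replicate 1 (-0.99), 3 (-1.09) or 4 (-1.07).

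Of 13 tested regulators, 2 were called lower and none was called higher. SPINT2, an inhibitor of membrane serine proteases whose loss disturbs claudin-7 in the intestine, fell from 135 ± 6.16 to 88.8 ± 8.61 FPKM (log2 fold change -0.62, SE 0.16, limma adjusted p = 0.016). Its call was lost without dexamethasone replicate 1 (-0.54), 3 (-0.61) or 4 (-0.62). ARHGEF2 (GEF-H1, a RhoA activator held inactive at tight junctions) fell from 20.9 ± 2.50 to 13.6 ± 2.39 FPKM (-0.61, SE 0.18, limma adjusted p = 0.029). That call was lost with the GC trend removed (-0.41) and without untreated replicate 1 (-0.59) or dexamethasone replicate 1 (-0.62), 4 (-0.61) or 5 (-0.51).

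**Figure D4:**
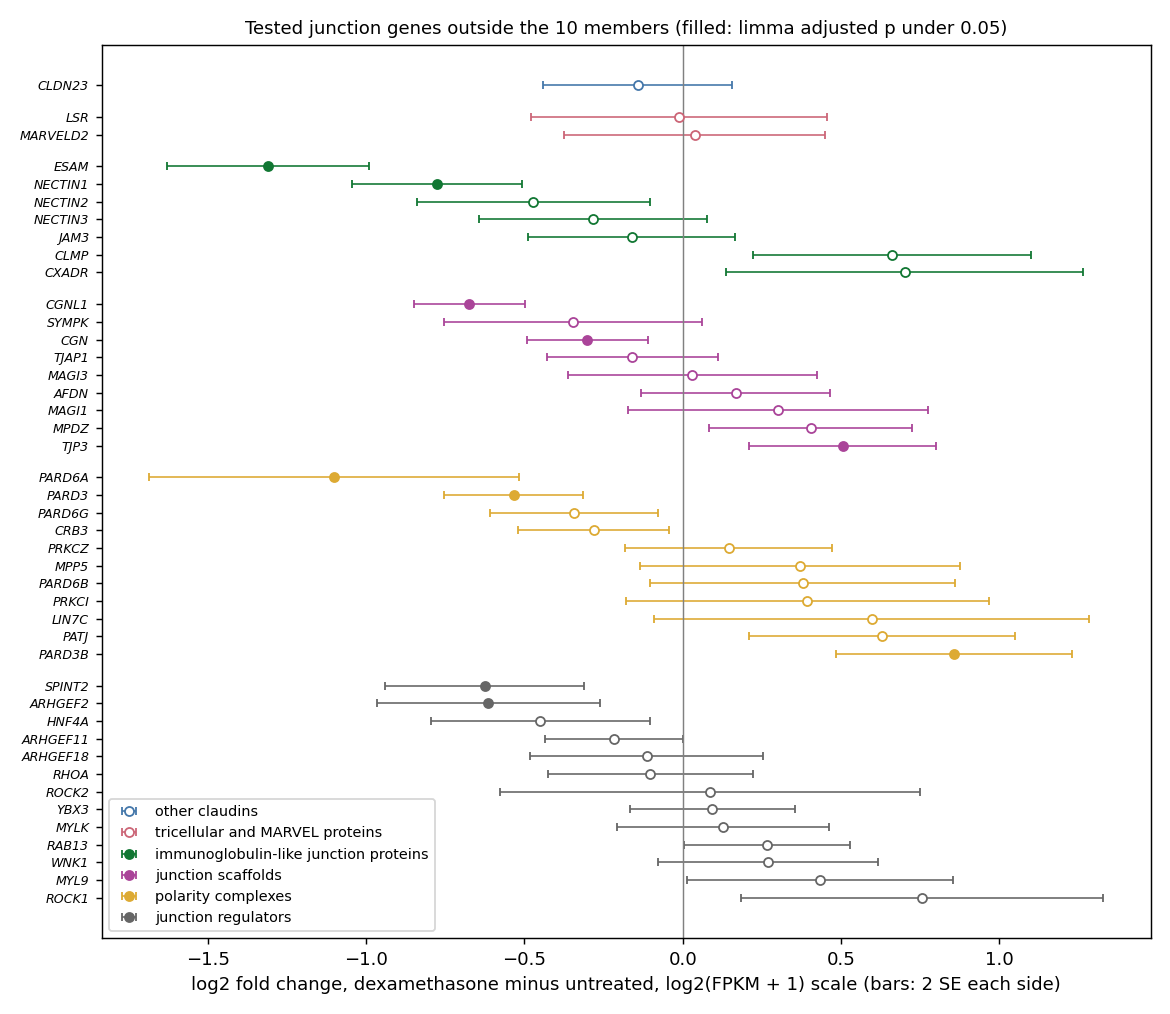
Log2 fold change of the tested junction genes outside the 10 members (1 of the 44 is not shown), dexamethasone minus untreated on the log2(FPKM + 1) scale, with bars of 2 SE on each side, grouped by list, filled where the limma adjusted p was under 0.05. The filled points are 8 lower genes, led by ESAM at -1.31, and 2 higher genes, PARD3B at 0.86 and TJP3 at 0.51.

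The genes whose pattern over the 8 libraries was nearest to CLDN2 were found by the root mean square distance of log2(FPKM + 1), each gene centred on its own mean. They were SEMA6B (distance 0.189), GDF15 (0.194), TESC (0.245), MGAT5B (0.266) and AMBP (0.268), none of them a junction gene. SEMA6B was at 7.59 ± 1.51 and 0.335 ± 0.0630 FPKM in untreated and treated cells, and GDF15 at 102 ± 13.5 and 16.6 ± 3.29 FPKM. They were chosen for their likeness to CLDN2, so their difference between the groups is a description.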

How the data were processed

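RNA was measured in 8 libraries of A549 cells, 4 untreated and 4 with dexamethasone. Per the submitters' processing notes, reads were checked with FastQC 0.11.9, trimmed with cutadapt 3.4, aligned to GRCh38 with STAR 2.7.9a and counted with featureCounts of Subread 2.0.3, and DESeq2 1.32.0 was used. The values the authors deposited are read as FPKM: they are not whole numbers and their sums differ between libraries. The unit, the annotation and the use of strand are not given in the sources used here. When low values were converted to estimated fragments, 30.3% to 42.1% came within 0.1 of an integer, so whole counts were not recovered. Smaller steps also occur, so the depth is approximate.

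Libraries were scaled with TMM factors computed on FPKM (trims of 0.3 and 0.05), genes with at least 0.5 FPKM in at least 4 libraries were kept, and limma 3.58.1 (R 4.3.3) was fitted to log2(FPKM + 1) (trend and robust, two-sided, Benjamini-Hochberg over 12161 genes, call at an adjusted p under 0.05). The fitting script was tested on simulated data with the spread of the untreated libraries and 200 genes changed. It recovered 0 of the 200 at 1.5-fold, 63 at 2-fold and 176 at 4-fold, with 0, 1 and 12 false calls. Most 2-fold changes were thus missed in that test, so a gene not called can still differ. The members and lists were chosen with earlier results of these data known. By rule, the genes named outside the members were the other claudins with a group mean of at least 0.5 FPKM, the 2 called genes with the smallest p per direction in each list, the checks FKBP5, TSC22D3, PER1, CDH1, EPCAM, KRT8 and KRT18, and the 5 genes nearest to CLDN2. CLDN5, CLDN18, JAM3, HNF4A, GRHL2, CDX2, PRSS8 and single genes of the cell type marker lists fall outside that rule and were chosen after their values were seen. Genes were placed and their overlaps and GC content taken from GENCODE v44. MPP5 stands for PALS1. Protein sequences were not used here, and some items of the lists are not reported here.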

Additional observations from a re-analysis of the deposited data

Results flagged for a closer look

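For 74 groups of 4 libraries, the gap between an extreme library and its nearest neighbour was divided by that group's whole range. It was unusually wide in 6, and about 1 in 20, or 3.7 of 74, are wide by chance. Of these 6, 5 were untreated replicate 5. CLDN15 was at 3.73 FPKM in untreated replicate 5 and at 4.49 to 4.55 FPKM in the other untreated libraries. The share of CLDN2 in the claudin FPKM was 49.0% there and 35.8% to 37.5% in the others. KRT18 was at 1270 FPKM in that library against 805 to 872 FPKM, SEMA6B at 9.82 against 6.48 to 7.04 FPKM, and TESC at 60.5 against 46.0 to 46.8 FPKM. TJP3 was at 2.12 FPKM in dexamethasone replicate 1 and at 2.65 to 2.69 FPKM in the other treated libraries.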

How the results depend on the processing

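Over 16 alternatives (pseudocount 0.1, no filter, other or no scaling, plain limma, GC trend removed, the replicate block, each library left out, both libraries numbered 5 left out), 9 of the 10 members kept their direction in every one, and CLDN15 reversed once, at 0.14 with the GC trend removed. Of 160 member values 152 kept direction and side of the threshold, 5 lost and 2 gained a call. The 5 lost calls were all of OCLN. They came without scaling (-0.72), without untreated replicate 1 (-0.73) or 4 (-0.71), and without dexamethasone replicate 3 (-0.74) or 4 (-0.72). The 2 gained calls were of CLDN1, with the GC trend removed (-0.37) and without both libraries numbered 5 (-0.24). The number of members called was 5 to 7. Calls over all genes rose from 3310 to 5777 with the replicate block and to 5513 without both libraries numbered 5, and the 3310 were all among the former and 3271 of them among the latter. Calls among the other junction genes rose from 10 to 21 with the replicate block, and were 5 to 11 when 1 library was left out. The deviations of same-numbered libraries correlated at 0.0653 to 0.713, with the lowest of 4 pairs under 0.1, so the pairing is treated as only a shared number, although 5 of 8 libraries correlated best with their own number; the cause of the change in counts was not tested. CLDN23 reversed at 0.11 with the GC trend removed. KRT18, at -0.04, reversed at 0.15 with the GC trend removed and at 0.11 when both libraries numbered 5 were dropped. Leaving out 1 library gave KRT18 values of -0.14 to 0.20, positive without dexamethasone replicate 1 (0.04) or untreated replicate 5. KRT8 was at 0.39 and not called. It was called higher with the GC trend removed (0.59), without untreated replicate 5 (0.65) and without both libraries numbered 5 (0.54). The mean CLDN2 share of claudin FPKM was recomputed only with single libraries of its group left out and over claudins that pass the filter. It was then 36.6% to 41.0% in untreated and 6.16% to 7.67% in dexamethasone libraries. Leaving out 1 of 4 values can move their mean only little against their SD, so this is no test of stability.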

Other observations

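Of 21 listed junction regulators 13 passed the filter, and 8 did not. Among those that passed, HNF4A, a transcription factor of epithelial differentiation, was at 9.55 ± 0.388 FPKM untreated and 6.92 ± 1.42 FPKM treated, without overlap (limma adjusted p = 0.083, not called). The genes below did not pass, and were named after their values were seen. GRHL2, a grainyhead transcription factor known to raise CLDN4 in other epithelia, was at 0 FPKM in all 8 libraries. CDX2, an intestinal transcription factor known to drive CLDN2, was below the filter at 0.222 ± 0.0808 FPKM untreated and 0.0858 ± 0.00643 FPKM treated. PRSS8, the membrane protease prostasin, was also below the filter, at 0 to 0.0425 FPKM untreated and 0.105 to 0.376 FPKM treated. The part of HNF4A, GRHL2, CDX2 and PRSS8 in the claudin results was not tested.

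Genes of the mitochondrial genome held 3.74% ± 1.77 of the FPKM in untreated and 6.05% ± 2.82 in treated libraries (two-sided exact permutation p = 0.257, or 0.457 after adjusting for 2 measures, where the smallest p possible is 0.0286). The summed epithelial markers were 2637 ± 667 and 2928 ± 349 FPKM (exact permutation p = 0.457, adjusted p = 0.457).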
